A study of Mus musculus with 4 samples.

Results

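The genes described here encode the alpha subunits of trimeric G proteins, and the data are the sites on their transcripts at which the RNA helicase MOV10 was mapped by eCLIP. The cells were N2A, a line derived from a mouse neuroblastoma. Members were selected on the position of their peaks: all peaks of the deposited list with their midpoint in the RefSeq GRCm38 span of 10 alpha subunit genes, or up to 10 kb past the 3′ end on the same strand. This gave 86 of the 12236 peaks of the list (0.703%). They lay in 5 genes, with 43 in Gna13, 12 in Gna12, 10 in Gnaq, 9 in Gna11 and 12 in Gnao1. Gnai1, Gnai2, Gnai3, Gnaz and Gnas held 0. The family was picked from a peak list already known to contain strong Gna13 peaks, so its counts and enrichments are given as a description, with no test.

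The series comprised 4 libraries from untreated N2A cells, 2 of them MOV10 immunoprecipitates made with an anti-MOV10 antibody and 2 inputs. In eCLIP, ultraviolet light crosslinks proteins to RNA, an antibody pulls down the protein with its fragments, and their reads are set against those of a size-matched input. The question addressed was which transcripts MOV10 binds, and the only values analysed were those of a peak list that combined all libraries. Each peak therefore carried a single value of each kind over all libraries, no spread between replicates could be given, and the number of reads behind a peak was not known.

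Each peak had 2 values of the authors', taken to be its −log10 p and its log2 fold enrichment in the immunoprecipitates relative to the inputs. That reading rests on the range of the values and on the column order of published eCLIP files, since the list has no header. Both values began just above 3 (3.001 for the log2 fold enrichment and 3.005 for the −log10 p), so weaker binding was not listed and a gene without a peak is not shown to be unbound. N2A identity could not be checked against marker genes, since a peak list gives no expression level.

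G protein alpha subunits bind GTP when a receptor in the plasma membrane is activated, separate from the beta and gamma subunits and act on enzymes or exchange factors until the GTP is hydrolysed. Gna12 and Gna13 encode the G12 class, which activates guanine nucleotide exchange factors for RhoA and so acts on the actin cytoskeleton. Gnaq and Gna11 belong to the Gq class, which activates phospholipase C beta. Gnao1, Gnai1, Gnai2, Gnai3 and Gnaz belong to the Gi/o class, which inhibits adenylyl cyclase, with Gnao1 abundant in neurons. Gnas encodes the adenylyl cyclase stimulator Gs. MOV10 is a cytoplasmic helicase that associates with Argonaute proteins, the effectors of microRNA silencing, and is known for binding in 3′ untranslated regions.

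Among the 10 members, peaks were found in Gna12 and Gna13 of the G12 class and in Gnaq and Gna11 of the Gq class. They were found in 1 of the 5 Gi/o members and not in Gnas. The 10 members are not all alpha subunit genes, and the 6 others listed (Gnal, Gnat1, Gnat2, Gnat3, Gna14 and Gna15) held 0 peaks. Among all coding genes with a listed strand, 8.30% held a peak by the same rule (1452 of 17492), and 8.28% of all 21900 coding genes held a peak within the gene span alone. Since the family was picked with its peaks known, nothing is read from the difference between 5 of 10 and these shares. The 5 genes with peaks held a median of 12 each, while the 1827 other coding genes with peaks held a median of 3, and 528 of these a single peak. The median log2 fold enrichment was 3.94 over the 86 peaks and 3.71 over the 12176 peak assignments to other coding genes. Without Gna13, the median of the 43 remaining member peaks was 3.63.

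All 86 peaks lay at the 3′ side of their gene. The midpoint nearest to an annotated 5′ end was 14873.5 nt away from it, in Gna11. Within 5 kb of the annotated 3′ end, on either side of it, lay 78 member peaks (90.7%, exact 95% binomial interval 82.5 to 95.9, which treats neighbouring peaks as independent). For the other coding genes the share was 87.6%. Every member peak outside this window was in Gnao1. Without Gna13 the share was 81.4%.

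**Figure D1:**
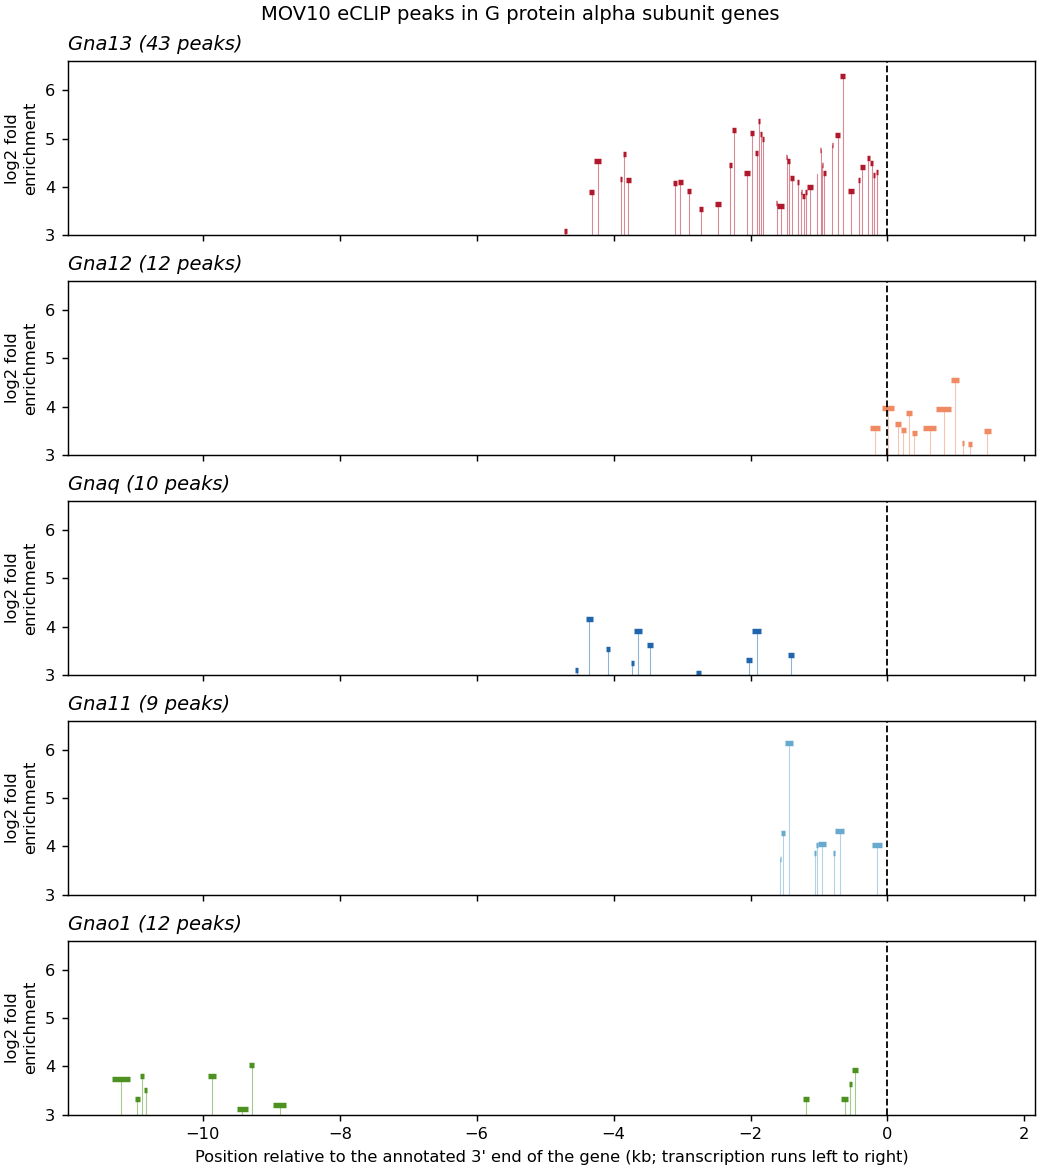
Position of the 86 peaks relative to the annotated 3′ end of each gene (dashed line, kb, transcription from left to right) against log2 fold enrichment; horizontal bars span each peak and thin lines mark its midpoint. Gna13 peaks lie scattered within the last 5 kb, and Gna12 peaks run past the end. Gnaq peaks stop 1364 nt before it, Gna11 peaks stay within 1574 nt, and Gnao1 peaks form 2 groups.

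Gna13 carried the most peaks of the family and the strongest. Its 43 peaks lay on the plus strand of chromosome 11 (gene span 109362794 to 109401369). Among the 1832 coding genes with peaks, Gna13 ranked 19th by number of peaks and 6th by highest log2 fold enrichment. It ranked 43rd by covered length and 69th by median log2 fold enrichment. Midpoints ran from 154.5 to 4704.5 nt before the 3′ end, none past it, with a median of 1473.5 nt. The log2 fold enrichment had a median of 4.30 and ranged from 3.08 to 6.29, and the −log10 p had a median of 22.5 and ranged from 10.6 to 49.6. All 43 peaks exceeded a −log10 p of 10, and 49.2% of the peaks of other coding genes lay below it. Since strong Gna13 peaks were known when the family was picked, nothing is read from this contrast.

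Many of these peaks touched a neighbour, and whether touching peaks mark continuous binding was not tested. Of the 42 neighbouring pairs, 18 touched end to end and 0 overlapped, and joining touching peaks left 25 blocks, the longest of 184 nt. Single peaks were short, from 12 to 105 nt, with a median of 48 nt against 74 nt over the whole list. Together they covered 2131 of the 4588 nt between their outer edges (46.4%). By kilobase from the 3′ end, midpoints numbered 13 in the last, 16 in the next, then 6, 5 and 3, so the count was highest between 1 and 2 kb and lower beyond 2 kb. The largest gap without a peak, 620 nt, lay between 3128 and 3749 nt from the end.

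The strongest Gna13 peak spanned 109400679 to 109400750. It reached 6.29 on the log2 scale (78.4-fold) with a −log10 p of 42.5, 654.5 nt before the 3′ end. It touched a peak of 5.08 at 109400602 to 109400678, which had the highest −log10 p of the family, 49.6. A second group of strong peaks lay between 1802 and 2321 nt from the end. There, 4 touching peaks at 109399440 to 109399567 reached 5.36, the next block, at 109399267 to 109399426, reached 5.11, and the one after, at 109399048 to 109399149, reached 5.17. In all, 6 of the 43 Gna13 peaks (14.0%) had a log2 fold enrichment that reached 5. The share was 5.91% for the peaks of other coding genes, and this contrast is likewise only described. Between the 2 groups, peaks at 109399736 to 109399857 reached only 3.66, so enrichment varied within the same stretch of transcript. The weakest peak, 3.08 at 109396640 to 109396689, was also the farthest from the 3′ end.

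Among the 132 other coding genes with at least 20 peaks, the 3 most like Gna13 in log2 number of peaks, highest log2 fold enrichment and median distance to the 3′ end were Nova2, Cplx2 and Sv2c. Likeness was the Euclidean distance over these 3 measures, each divided by its SD over the genes. Nova2, a neuronal splicing regulator, lay at a distance of 0.30 with 45 peaks up to 6.44. Cplx2, a complexin of synaptic vesicle release, lay at 0.57 with 37 peaks up to 6.07. Sv2c, a synaptic vesicle glycoprotein gene, lay at 0.63 with 39 peaks up to 5.96, with the midpoints at a median of 248.5 nt from the 3′ end.

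**Figure D2:**
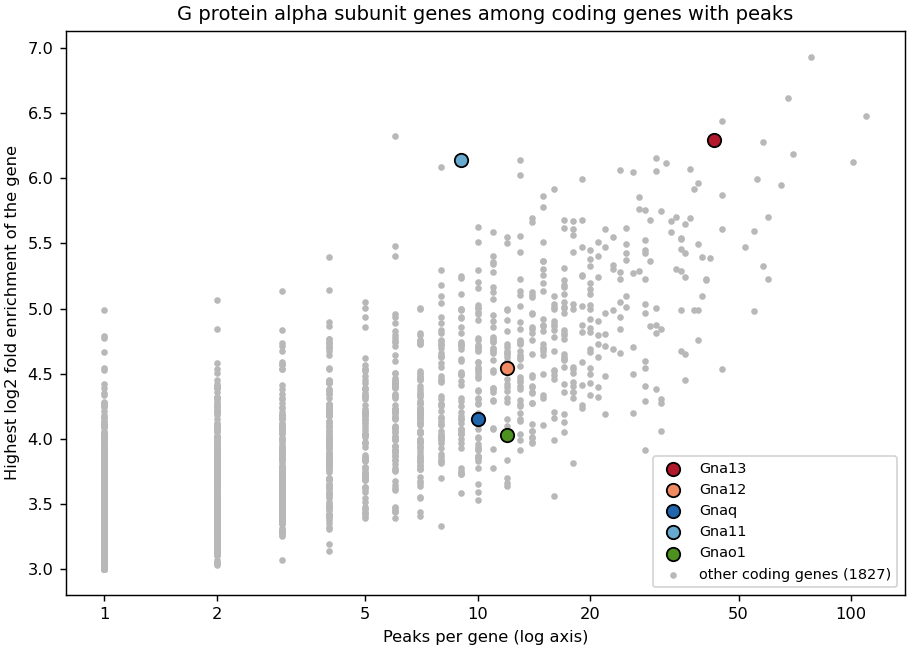
Number of peaks per gene (log axis) against the highest log2 fold enrichment of the gene, for the 5 alpha subunit genes with peaks (coloured) and 1827 other coding genes with peaks (grey). Gna13, with 43 peaks and 6.29, lies at the upper right, and Gna11 reaches 6.14 with 9 peaks.

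Gna12, the paralogue of Gna13, had fewer and weaker peaks in another position. Its 12 peaks, on the minus strand of chromosome 5 (gene span 140759944 to 140830431), had a median log2 fold enrichment of 3.57 and ranged from 3.24 to 4.55. Only 1 of them, at 140760054 to 140760199, had its midpoint inside the annotated span. A further peak, at 140759845 to 140760031, straddled the annotated 3′ end, with its midpoint 6 nt past it, and had the highest −log10 p of the gene, 18.9, at a log2 fold enrichment of 3.97. The other 10 lay wholly past the end, out to a midpoint 1457.5 nt beyond it. In the other coding genes, 26 of 1827 (1.42%) had most of their peaks past the annotated end and outside any other gene of that strand. Genes without a listed strand are among the 1827 and entered only with a peak inside their span, which lowers this share to an unknown degree.

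The Gna12 peaks formed an almost unbroken run. They joined into 7 blocks that covered 1390 of 1763 nt (78.8%), and the largest gap was 167 nt. The longest block, 3 touching peaks at 140758905 to 140759428, measured 524 nt. It held the strongest peak, 4.55 (23.4-fold, −log10 p 15.7), at 140758905 to 140759012, 985.5 nt past the end. Of the 12 peaks this was the only one whose log2 fold enrichment reached 4. The weakest, 3.24 at 140758704 to 140758774, and a peak of 3.26 at 140758821 to 140758858 lay just beyond that block. The next peak on the same strand past the 10 kb limit lay 111044 nt from the end, with a log2 fold enrichment of 3.17. No other gene of the annotation overlapped the Gna12 span, but that check did not cover the stretch past the end. There, the assignment rule left out only peaks with their midpoint in another gene of the same or an unlisted strand. Whether a longer Gna12 transcript covers this stretch was not tested.

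Gna11 combined few peaks with a very strong one. Its 9 peaks, on the minus strand of chromosome 10 (gene span 81528724 to 81545162), lay from 150.5 to 1564.5 nt before the 3′ end. The strongest stood at 81530110 to 81530225, with a log2 fold enrichment of 6.14 (70.6-fold) and a −log10 p of 24.0. It ranked 10th among coding genes by highest enrichment, while the gene ranked 402nd by number of peaks. The other 8 peaks lay between 3.74 and 4.33, well below it. The leading peak was the part nearest to the 3′ end of a block of 3 touching peaks, and the next 2, at 81530226 to 81530278 and 81530279 to 81530298, had 4.28 and 3.74. The block measured 189 nt, so values of 6.14 and 3.74 stood within that length.

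The remaining Gna11 peaks formed 3 more blocks nearer the end. The 3 touching peaks at 81529627 to 81529799 had log2 fold enrichments of 4.04, 4.03 and 3.86. A pair at 81529362 to 81529516 had 4.33 and 3.86. A lone peak of 4.02 at 81528803 to 81528946 lay 150.5 nt from the end. With 6 of 9 peaks at or above 4 on the log2 scale and a median of 4.03, Gna11 was nearer to Gna13 in enrichment than to Gnaq.

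Gnaq, which shares the Gq class with Gna11, had weak and spaced peaks. Its 10 peaks, on the plus strand of chromosome 19 (gene span 16132684 to 16388520), lay from 1407 to 4540 nt before the 3′ end, so the last 1364 nt of the gene held none. The log2 fold enrichment had a median of 3.48 and ranged from 3.04 to 4.15, and the −log10 p had a median of 6.21. Both were the lowest medians of the 5 genes, and 9 of the 10 peaks had a −log10 p below 10. The exception, at 16384817 to 16384940, had a −log10 p of 20.9 at a log2 fold enrichment of 3.92. The strongest enrichment, 4.15 at 16384119 to 16384212, came with a −log10 p of only 7.23. The peaks covered 856 of 3201 nt (26.7%), the thinnest coverage of the 4 genes whose peaks form a single group.

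**Figure D3:**
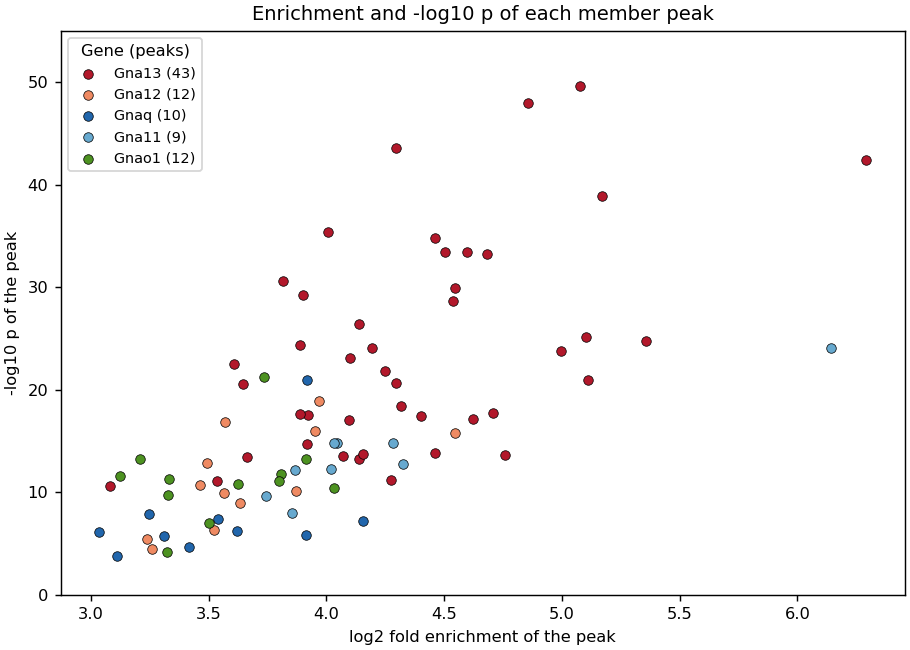
Log2 fold enrichment against −log10 p of each of the 86 peaks, coloured by gene. Gna13 peaks take most of the upper part, the leading Gna11 peak stands apart at 6.14 and 24.0, and 9 of 10 Gnaq peaks lie below a −log10 p of 10.

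Gnao1, the only Gi/o gene with peaks, had them in 2 groups 7539 nt apart. The gene lies on the plus strand of chromosome 8 (93810153 to 93969388). Near the 3′ end, 4 peaks with midpoints 472 to 1193 nt before it had log2 fold enrichments of 3.91, 3.62, 3.33 and 3.32. Farther inside, 8 peaks 8878 to 11199 nt before the end ranged from 3.12 to 4.03, with a median of 3.62 against 3.48 for the nearer group. The groups overlapped in enrichment. The strongest peak of the gene, 4.03 at 93960064 to 93960131, and that with the highest −log10 p, 21.3 at 93958059 to 93958319, both belonged to the inner group.

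Most Gnao1 peaks thus lay more than 5 kb from the annotated 3′ end, as was the case in 153 of the 1827 other coding genes (8.37%). Peaks both inside and outside the 5 kb window occurred in 162 of them (8.87%). Gnao1 is known to be spliced at its 3′ end into alternative forms of the Go alpha subunit with different last exons. Exon coordinates were not used here, so whether the inner group lies in the last exon of such a form was not tested.

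In the 5 genes without a peak, no peak of either strand lay in the span or within 10 kb of it. These were Gnai1 on chromosome 5 (18265135 to 18360413), Gnai2 on chromosome 9 (107614125 to 107635391), Gnai3 on chromosome 3 (108107275 to 108146152), Gnaz on chromosome 10 (74967177 to 75016907) and Gnas on chromosome 2 (174284320 to 174346744). Gnai2 and Gnaz had no strand in the tables used, and both strands were searched. How abundant these transcripts were in the input was not known.

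The order of the 5 bound genes depended on the measure. By highest log2 fold enrichment it was Gna13 at 6.29, Gna11 at 6.14, Gna12 at 4.55, Gnaq at 4.15 and Gnao1 at 4.03. By median it was Gna13 at 4.30, Gna11 at 4.03, then Gna12 at 3.57, Gnao1 at 3.56 and Gnaq at 3.48. By number of peaks Gna13 led with 43, ahead of Gna12 and Gnao1 with 12 each, Gnaq with 10 and Gna11 with 9. By covered length it was Gna13 with 2131 nt, Gna12 with 1390 nt, Gnao1 with 1347 nt, Gnaq with 856 nt and Gna11 with 661 nt. Without values per library, none of these differences between genes could be tested.

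Other genes of the pathway were examined from a list of 103 genes, 19 of them without a listed strand. Of the 103, 15 (14.6%) had a peak, 109 peaks in all, where 8.30% of coding genes with a listed strand had one. Within the gene span alone 15 also had a peak, where 8.28% of all coding genes had one. The list was written with results of these data known, and its roles hold 4 to 20 genes each. The counts are therefore a description, and nothing is read from their distance to these shares. Of the beta subunit genes 1 of 5 had peaks, Gnb1, with 15 up to 4.70, and of the gamma subunit genes 1 of 10, Gng2, with 7 up to 4.26. The 6 alpha subunit genes outside the members had 0 genes with a peak. The 18 genes of RGS proteins, which speed GTP hydrolysis by alpha subunits, had 0, as did the 7 of chaperones and non-receptor regulators.

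Of 4 RhoGEF genes listed as effectors of the G12 class, 2 had peaks, where 8.30% of coding genes with a listed strand did. Arhgef12, which encodes the exchange factor LARG through which G12 and G13 activate RhoA, had 11 peaks with log2 fold enrichments from 3.14 to 5.36, all 476.5 to 3001.5 nt before the 3′ end, and its highest value was the highest of the pathway list. Akap13, an anchoring protein with an exchange factor domain, had 3 peaks up to 3.37. Of 6 effector genes of the Gq class 1 had a peak.

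Genes of cyclic AMP signalling and of receptor desensitisation made up most of the rest. Each role holds few genes to set beside the 8.30% of coding genes with a listed strand, so nothing is read from its count. That share does not cover Adcy6, Grk2, Grk3 and Arrb1, which had no listed strand and took that of their peaks. Within the gene span alone, 8.28% of all coding genes held a peak. Of 6 subunit genes of protein kinase A (PKA), 4 had peaks. Among them were the regulatory subunit gene Prkar2a with 16 up to 4.49 and the catalytic subunit gene Prkaca with 5 up to 3.68. Of 9 adenylyl cyclase genes 1 had a peak, Adcy6, at 4.21 and with a −log10 p of 3.62. Of 7 genes of receptor kinases and arrestins 3 had peaks, Arrb1, which encodes beta-arrestin 1, with 13 up to 4.62, Grk2 with 5 up to 4.23 and Grk3 with 6 up to 3.78. Of 20 receptor genes 2 had peaks, the cannabinoid receptor gene Cnr1 with 20 up to 4.66 and the thrombin receptor gene F2r with 1 at 3.48. In the 12 pathway genes named here every peak lay within 5 kb of the 3′ end, and 0 lay past it.

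**Figure D4:**
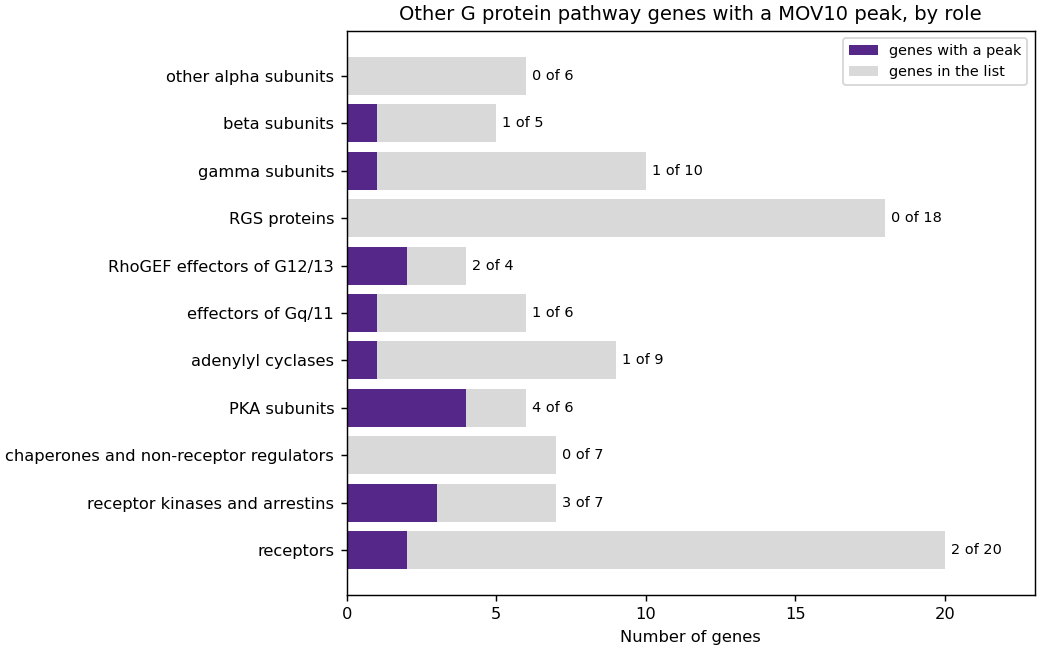
Number of genes with a MOV10 peak (purple) out of the genes listed for each role in G protein signalling (grey). PKA subunits have 4 of 6, receptor kinases and arrestins 3 of 7, and RGS proteins 0 of 18. The share was 8.30% over coding genes with a listed strand, and 8.28% over all coding genes within the gene span alone.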

How the data were processed

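The 4 libraries (2 MOV10 immunoprecipitates, 2 inputs) entered 1 list of 12236 peaks, whose name marks a comparison of immunoprecipitate with input and an IDR (irreproducible discovery rate) step. The −log10 p and the log2 fold enrichment of each peak were deposited by the authors, and both were used as given. Per the submitters' processing notes, the genome build was mm10 (GRCm38.p6). The aligner, the peak caller, its thresholds and how replicates were joined: not given in the sources used here.

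Starts were converted to count from 1. Gene spans came from the RefSeq table of GRCm38.p6, and strands from the matching RefSeq promoter table, which held 17492 of 21900 coding genes. The other 4408 took the strand of the peaks in their span where these shared a single strand, and were otherwise assigned no peak. A peak belonged to a gene when its midpoint lay in the span on the gene's strand, or up to 10 kb past the 3′ end and in no other gene of that strand. A peak in overlapping genes counted for each. Assignment was tested on simulated data with Python 3.11.15, pandas 2.3.3 and SciPy 1.17.1. Distances run from peak midpoint to the annotated end.

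Members and lists were chosen with earlier results of these data known. Named genes were all members, the 12 pathway genes with the highest log2 fold enrichment, and the 3 genes most like the member with most peaks. A role group of the pathway list is counted in its total but not reported here. Exons and genome sequence were not used here, so GC content, untranslated regions and motifs were not analysed and no sequence is shown. The proteins were likewise not compared. Nothing in the labels says whether replicates came from separate cultures.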

Additional observations from a re-analysis of the deposited data

How the results depend on the processing

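Of 28 values recomputed under other settings, 19 stayed within 1.5 times the reported count or within the 95% binomial interval of the reported share or median, and 9 moved. These intervals treat neighbouring peaks as independent, and that of the median ran from 3.86 to 4.10. Some outcomes followed from the setting itself, as did the count of 4 genes with a peak without Gna13. The tally is therefore a description and not a test of robustness. The number of genes with a peak stayed at 5 with only peaks of log2 fold enrichment 4 or more, with a −log10 p of at least 5, by any overlap and within the gene span only. With only peaks of log2 fold enrichment 4 or more, Gna12, Gnaq and Gnao1 each kept a single peak, Gna11 kept 6 and Gna13 kept 32. The 86 member peaks became 41 among peaks of log2 fold enrichment 4 or more, 52 with touching peaks merged and 43 without Gna13, a setting chosen after seeing the data. The share within 5 kb of the 3′ end, 90.7%, became 97.6% among peaks of log2 fold enrichment 4 or more and 81.4% without Gna13, and 65.1% lay within 2 kb. The median log2 fold enrichment, 3.94, became 4.40 among peaks of log2 fold enrichment 4 or more, by construction, and 3.63 without Gna13. Pathway genes with a peak numbered 15, and 8 among peaks of log2 fold enrichment 4 or more. No paired analysis was possible because the list holds no value per library, and no replicate could be left out for the same reason. The reads behind each peak, and so its counting error, were not known.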
